A study of Homo sapiens with 12 samples.

Results

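The genes described here encode the subunits of oxidative phosphorylation. They were chosen by symbol among the protein-coding genes of the count table: the NDUF subunits of complex I (assembly factors left out), SDHA to SDHD of complex II, the UQCR genes and CYC1 of complex III, the COX4 to COX8 genes of complex IV, the ATP5 genes of complex V, and the protein genes of the mitochondrial genome. This gave 104 of 78930 genes, of which 91 are nuclear and 13 mitochondrial. By complex, the nuclear genes number 38 in complex I, 4 in complex II, 10 in complex III, 19 in complex IV (with NDUFA4 and NDUFA4L2 counted there) and 20 in complex V. The mitochondrial genes number 7, 0, 1, 3 and 2 in complexes I to V. After removal of low counts 97 genes were tested, 84 nuclear and 13 mitochondrial.

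RNA was sequenced from OCI-AML3, an acute myeloid leukaemia cell line with mutant cytoplasmic nucleophosmin (NPM1c), engineered so that dTAG-13 marks the mutant protein for degradation. There were 4 groups of 3 libraries. FL-NPM1c cells carried a lentiviral full-length NPM1c fused to mCherry and received dTAG-13. C-body null cells carried a fusion that the labels call Cbodynull-mCherry and received dTAG-13. The mCherry cells carried mCherry alone and received dTAG-13, with no NPM1c put back. The NTC DMSO cells received solvent by their titles, although their treatment label reads dTAG, and what NTC stands for is not stated. In comparisons with NTC DMSO cells, loss of NPM1c, dTAG-13 itself and any difference in construct cannot be told apart. All groups have the NPM1c-degron genotype. dTAG-13 was given at 500 nM 48 hours after transduction, and 24 hours after that cells positive for mCherry were collected by flow sorting. No label ties the replicates to separate cultures, so each p-value reflects variation among these libraries alone, possibly of technical origin.

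Oxidative phosphorylation couples the transfer of electrons from NADH and succinate to oxygen with the making of ATP. Complexes I, III and IV pump protons across the inner mitochondrial membrane, complex II feeds in electrons from succinate, and complex V uses the proton gradient to make ATP. Most subunits are encoded in the nucleus and imported. The mitochondrial genome encodes core subunits of every complex but II and is transcribed as long polycistronic RNAs from both strands, with MT-ND6 on the opposite strand from the other protein genes. Acute myeloid leukaemia cells are known to depend on this pathway for survival.

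Sequencing depth ranged over 30.5 M to 59.9 M counts per library (median 41.0 M). The myeloid markers CD33, SPI1, CEBPA and CD44 were expressed in every group (KIT had no counts), and CD3D, HBB and EPCAM had no counts. The myeloid marker MPO was scarce, with group means of 1.37 to 2.59 CPM (counts scaled to the library total). Of the T and NK cell markers NKG7 passed the filter, with group means of 0.967 to 1.08 CPM. Of the erythroid and megakaryocyte markers PPBP passed it, averaging 2.32 CPM in FL-NPM1c, 0.654 in C-body null, 0.860 in mCherry and 0.110 in NTC DMSO libraries. Levels of 7 monocyte and macrophage markers, led by LYZ, summed to 2656 to 2832 CPM in FL-NPM1c, 4230 to 4383 in C-body null, 3018 to 3470 in mCherry and 366 to 420 in NTC DMSO libraries. LYZ made up most of each sum, averaging 2506 CPM in FL-NPM1c and 342 in NTC DMSO libraries. FCGR1A averaged 17.0 CPM in FL-NPM1c against 30.5 in NTC DMSO libraries, and ITGAM 3.81 against 3.94. The other markers of the list averaged higher in FL-NPM1c than in NTC DMSO libraries. Of 4 epithelial and fibroblast markers FN1 alone passed the filter, and the list summed to 628 to 718, 454 to 553, 449 to 559 and 59.2 to 66.5 CPM in the same order of groups. The part of these markers in the results was not tested. In bulk RNA, fewer cells of a kind and less RNA per cell cannot be told apart. NPM1 averaged 1651 ± 38.9, 1922 ± 21.7, 1252 ± 171 and 1429.6 ± 117 CPM in the same order of groups (SD, n = 3 each); its reads do not separate the endogenous from the introduced transcript. Libraries also differed within groups, and mCherry replicate 2 and NTC DMSO replicate 3 stood apart from their own groups. To a lesser degree, so did C-body null replicate 3 and FL-NPM1c replicate 3. Results that rest on mCherry replicate 2 or NTC DMSO replicate 3 are given with and without them, and each library was also left out in turn.

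Mitochondrial transcripts were far more abundant per length than nuclear ones. Per kilobase of exon, the 13 mitochondrial genes had a median of 5901 CPM, from 1676 for MT-ND5 to 10742 for MT-CO2. The 82 tested nuclear genes that are not read-through genes had a median of 37.0 CPM per kilobase. The highest were ATP5F1B, the catalytic beta subunit of ATP synthase (423), NDUFS5 (274) and COX8A (199). The lowest were NDUFA4L2 (0.202), NDUFS7 (2.53) and NDUFA5 (6.13). The isoforms of complex IV known from other tissues were nearly silent. COX4I2, COX6A2 and COX7B2 had 0 counts in all libraries together, COX7A1 had 24, COX8C 44 and COX6B2 74, and ATP5MGL had 29. Their common forms were well expressed, with 58.1 CPM per kilobase for COX4I1 against 0 for COX4I2, and 67.4 for COX7A2 against 0.0479 for COX7A1. Among the 3 genes for the identical mature c subunit of ATP synthase, ATP5MC2 stood at 60.6 CPM per kilobase, against 32.8 for ATP5MC1 and 31.8 for ATP5MC3. Counts of ATP5MF-PTCD1 equalled 99.4% of those of ATP5MF and counts of NDUFC2-KCTD14 77.9% of those of NDUFC2, so these read-through genes cannot be told apart from their first gene. Counts of UQCRHL, a near copy of UQCRH, equalled 6.56% of those of UQCRH and are likewise uncertain.

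The share of reads taken by the mitochondrial mRNAs was highest on average in the mCherry group, with wide spread among its libraries. The 13 genes took 6.20%, 5.88% and 5.78% of counts in FL-NPM1c libraries and 5.94%, 5.65% and 6.16% in C-body null libraries. They took 6.66%, 5.88% and 7.72% in mCherry libraries and 5.86%, 6.07% and 5.60% in NTC DMSO libraries. The mCherry values overlapped those of every other group, with replicate 3 the highest of the 12 libraries and replicate 2 inside the range of the others. The nuclear genes together took 0.958% to 1.12% of counts. The 89 nuclear genes other than read-through genes took 1.02%, 1.02% and 0.958% in FL-NPM1c, 1.04%, 1.05% and 1.09% in C-body null, 1.12%, 1.05% and 1.06% in mCherry, and 1.06%, 1.05% and 1.06% in NTC DMSO libraries. The FL-NPM1c libraries were the lowest 3 of the 12. The 19 nuclear ATP synthase genes without the read-through gene took 0.366 ± 0.0111% in FL-NPM1c, 0.396 ± 0.00755% in C-body null, 0.402 ± 0.0191% in mCherry and 0.401 ± 0.00954% in NTC DMSO libraries (SD, n = 3 each). The ratio of mitochondrial to nuclear counts ranged from 5.76 to 6.05 in FL-NPM1c, 5.40 to 5.70 in C-body null, 5.60 to 7.30 in mCherry and 5.27 to 5.78 in NTC DMSO libraries. The FL-NPM1c libraries lay above the C-body null libraries, and every other pair of groups overlapped. Mitochondrial rRNA genes, which an mRNA kit captures in part, took 1.03%, 1.10%, 1.32% and 1.02% of counts on average in the same order of groups.

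**Figure D1:**
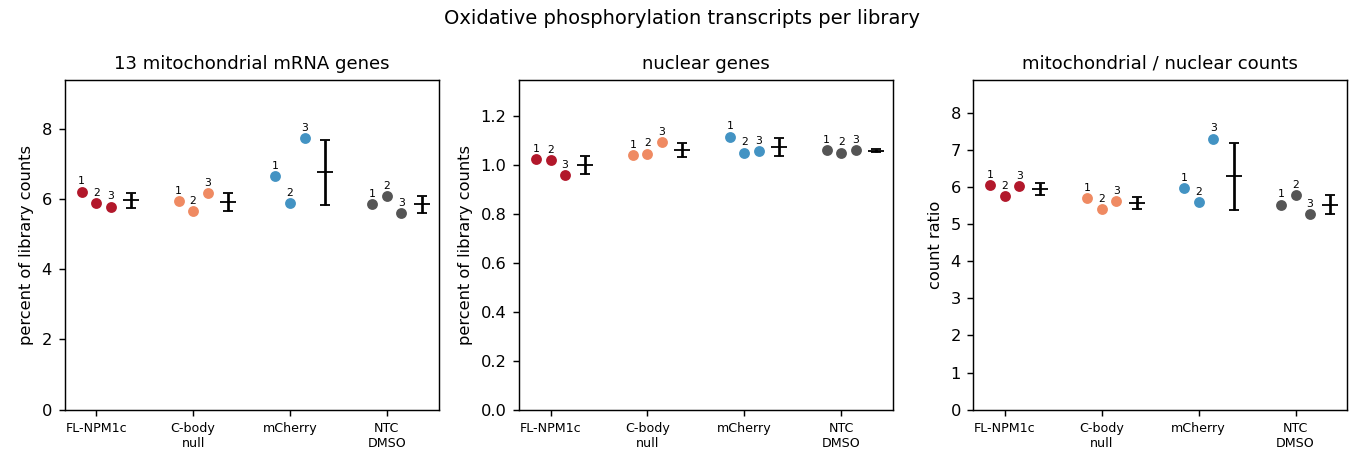
Percent of library counts from the 13 mitochondrial mRNA genes, from the 89 nuclear genes, and the ratio of both, per library (points, with the replicate number) by group, with mean and SD at the right of each group. Replicate 3 of mCherry, at 7.72%, is the highest mitochondrial share, and the FL-NPM1c libraries hold the lowest nuclear shares, 0.958% to 1.02%.

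Replicates differed together across the genes. In mCherry libraries, replicate 3 was the highest and replicate 2 the lowest of the group for 13 of 13 mitochondrial genes. Among the 82 nuclear genes, FL-NPM1c replicate 3 was the lowest of its group for 73 genes (89.0%, against 37.7% of all genes tested), and C-body null replicate 3 was the highest of its group for 70 genes (85.4%, against 37.4%). The shifts ran in part with the base composition of the transcripts. The GC content of the longest GENCODE transcript, known for 20621 of the 24064 genes tested (85.7%) and for all 84 nuclear genes, was set against each library's log2 CPM relative to the mean of the 12 libraries. Spearman's rho across the 84 nuclear genes was 0.66, 0.64 and 0.54 in FL-NPM1c replicates 1 to 3. It was -0.37, -0.12 and 0.35 in C-body null, -0.42, 0.43 and -0.73 in mCherry, and -0.34, -0.44 and 0.57 in NTC DMSO libraries. Across all genes the signs were the same in each of the 12 libraries, from -0.58 in mCherry replicate 3 to 0.50 in FL-NPM1c replicate 1. The genes of one library share its preparation and depth, so these values are descriptions. GC content thus moves with the FL-NPM1c group. It also separates mCherry replicate 2, NTC DMSO replicate 3 and C-body null replicate 3 from their own groups. Over all genes, rho was 0.40 in C-body null replicate 3, against -0.08 and -0.05 in replicates 1 and 2. Each comparison below was therefore also fitted with every library's GC trend taken out, an alternative chosen after seeing the data, which also removes any difference between groups that follows GC.

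**Figure D2:**
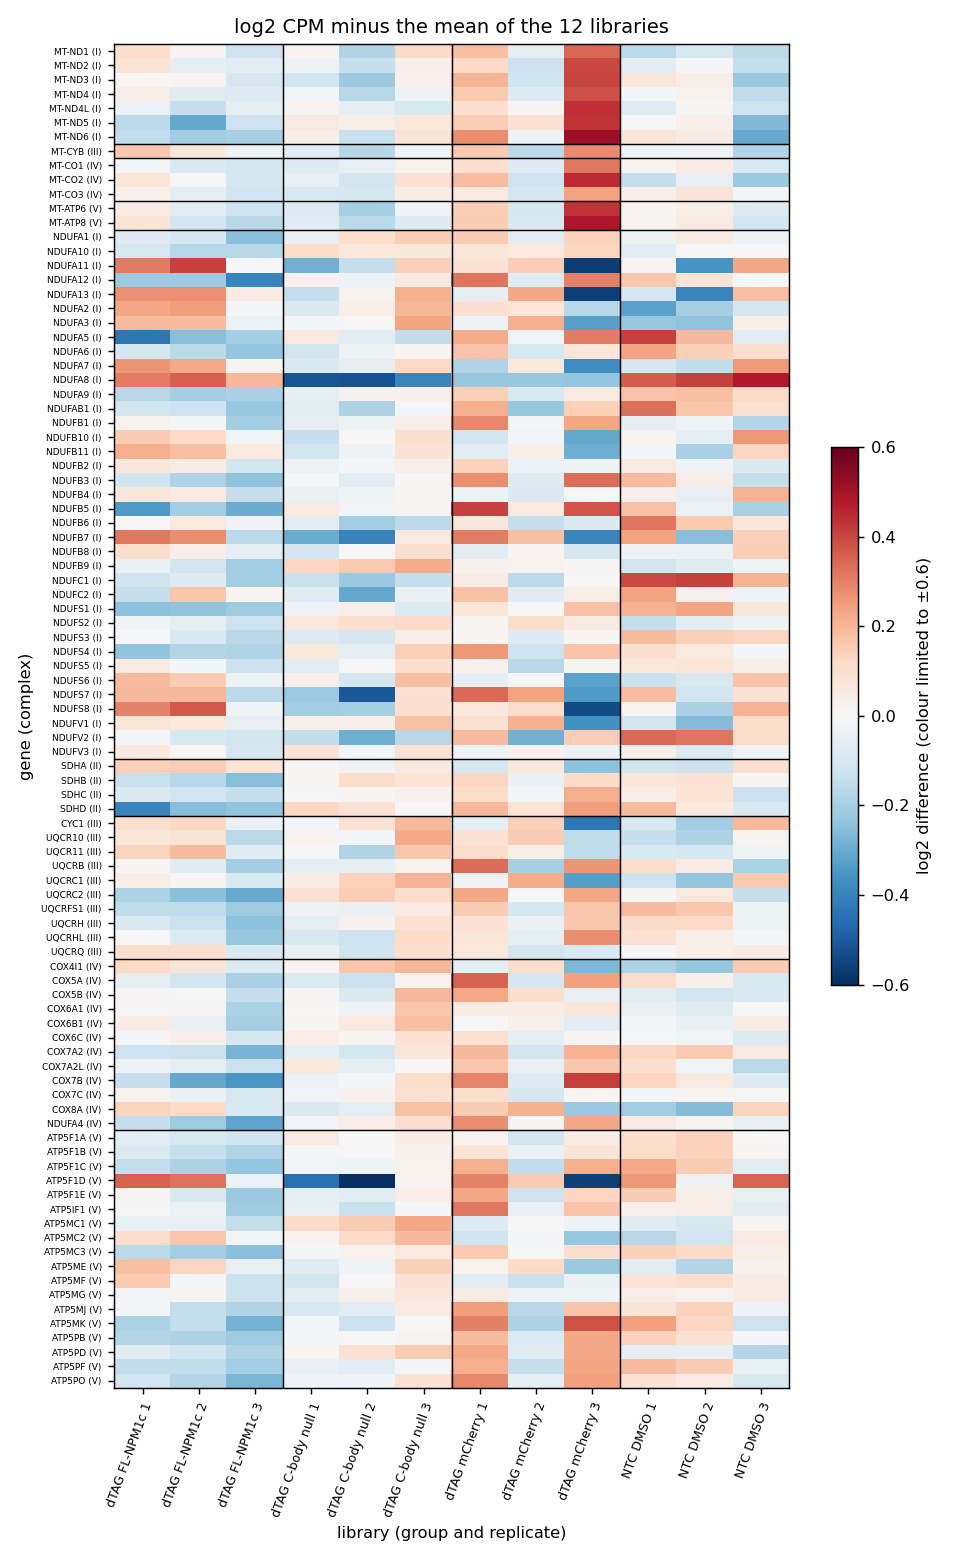
Log2 CPM of each tested gene (rows, by genome and complex, NDUFA4L2 left out) minus its mean over the 12 libraries (columns, by group), with colour limited at 0.6 either way. The 13 mitochondrial genes are all highest in mCherry replicate 3 within that group, and nuclear genes of FL-NPM1c replicate 3 are mostly lower than in the other 2 FL-NPM1c libraries.

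**Figure D3:**
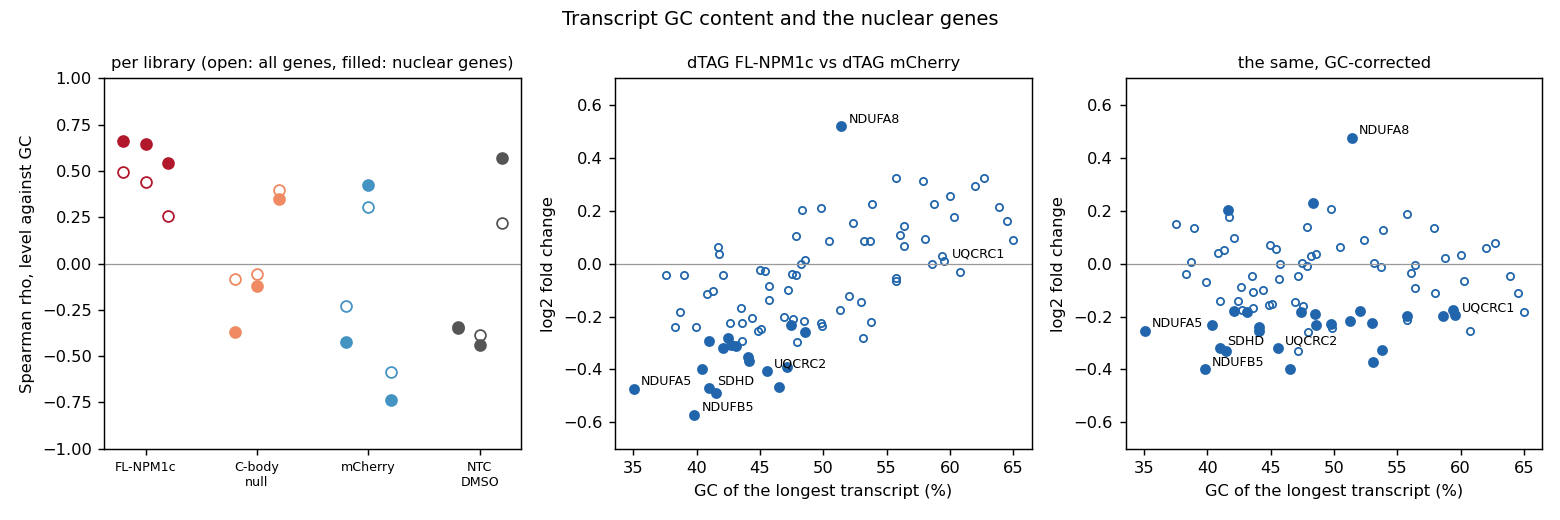
Left, Spearman's rho of level against transcript GC per library (open, 20621 genes, filled, 84 nuclear genes); middle and right, log2 fold change of nuclear genes in FL-NPM1c against mCherry cells by transcript GC percent, before and after GC correction, filled where the adjusted p was under 0.05 (NDUFA4L2 not drawn). All FL-NPM1c libraries have a positive rho, 17 genes are called lower before correction, and 24 genes across the GC range are called lower after it.

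The first comparison, mCherry against NTC DMSO cells, set dTAG-13-treated cells without a replacement against solvent cells. Few nuclear genes changed. NDUFB5 rose and NDUFA8, NDUFC1 and the read-through gene ATP5MF-PTCD1 fell, that is 1 higher and 3 lower of 84 tested (edgeR quasi-likelihood test, Benjamini-Hochberg adjusted p under 0.05), while 12.9% of all 24064 genes were called higher and 9.69% lower, 22.6% in all. The median log2 fold change was 0.01 over the nuclear genes, and ran from -0.03 without mCherry replicate 1 to 0.04 without NTC DMSO replicate 1. The mitochondrial genes were all on the higher side, with a median of 0.21 and 4 of 13 called. That median was 0.08 without mCherry replicate 3 and 0.34 without mCherry replicate 2. MT-ND1 had 3674, 3127 and 4116 CPM in mCherry libraries, against 2898, 3037 and 2914 in NTC DMSO libraries (log2 fold change 0.30 ± 0.10 SE, adjusted p = 0.0320). MT-CO2, a core subunit of cytochrome c oxidase, had 8285, 6686 and 9950 CPM in mCherry libraries, against 6612, 7050 and 6250 in NTC DMSO libraries (0.32 ± 0.11, adjusted p = 0.0411). MT-ND1 libraries did not overlap, but mCherry replicate 2 lay close to the NTC DMSO libraries, and for MT-CO2 it lay below 1 of them. MT-ND5 (0.30 ± 0.09, adjusted p = 0.0267) and MT-ND4L (0.26 ± 0.09, adjusted p = 0.0497) were also called. All 4 calls ended without mCherry replicate 3, where MT-ND1 was at 0.21 (adjusted p = 0.135), MT-CO2 at 0.18 (0.203), MT-ND5 at 0.19 (0.119) and MT-ND4L at 0.12 (0.253). They also ended without NTC DMSO replicate 3, with adjusted p from 0.0650 to 0.120, and all but MT-ND5 ended without NTC DMSO replicate 1 or 2 or mCherry replicate 1, with adjusted p from 0.0563 to 0.121. NDUFB5 had 155, 121 and 151 CPM in mCherry libraries, against 131, 113 and 101.6 in NTC DMSO libraries (0.30 ± 0.10, adjusted p = 0.0421), and the groups overlapped. That call ended without NTC DMSO replicate 2 (0.30, adjusted p = 0.120) or 3 (0.21, 0.148) and without mCherry replicate 1 (0.23, 0.195) or 3 (0.26, 0.105). The call of ATP5MF-PTCD1 ended without any single library, with adjusted p from 0.0503 to 0.135. Without mCherry replicate 2, 24 oxidative phosphorylation genes were higher and 2 lower, where 12.5% and 11.5% of all genes were called. GC-corrected, 13 were higher and 5 lower, including 6 of 13 mitochondrial genes, where 17.3% and 17.2% of all genes were called.

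NDUFA8 had the lowest p among the 84 nuclear genes in 5 of the 6 comparisons. It encodes an accessory subunit of complex I with paired cysteine motifs that faces the intermembrane space, and lies on chromosome 9 from 122144058 to 122159819 on the minus strand (GRCh38, GENCODE 29). NDUFA8 stood at 129.8, 134 and 120.4 CPM in FL-NPM1c, 73.1, 73.1 and 79.8 in C-body null, 89.6, 89.6 and 89.2 in mCherry, and 135, 139 and 146 in NTC DMSO libraries. It was low in the C-body null and mCherry groups, and the FL-NPM1c and NTC DMSO libraries lay above all of theirs with no overlap. NDUFA8 fell in mCherry against NTC DMSO cells (log2 fold change -0.65 ± 0.07, adjusted p = 5.39e-06) and in C-body null against NTC DMSO cells (-0.90 ± 0.07, adjusted p = 1.00e-07). It was higher in FL-NPM1c than in mCherry cells (0.52 ± 0.07, adjusted p = 0.000188) and than in C-body null cells (0.77 ± 0.07, adjusted p = 3.29e-06). These 4 calls held without each library in turn and under every alternative tried, GC correction included. FL-NPM1c differed from NTC DMSO by -0.13 ± 0.07 (adjusted p = 0.190) and C-body null from mCherry by -0.25 ± 0.07 (adjusted p = 0.186). GC-corrected, those values were -0.18 (adjusted p = 0.00912) and -0.30 (adjusted p = 0.00395). NDUFA8 transcripts have 51.4% GC, near the middle of the genes.

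The bases around the NDUFA8 start are shown because of that gene's low p-values, beside those of SDHD and NDUFC1, described below. They run 250 bases before to 50 after the RefSeq start (GRCh38.p14), in the gene's direction. NDUFA8 is chr9:122159730-122160029 on the minus strand, SDHD chr11:112086623-112086922 on the plus strand and NDUFC1 chr4:139302502-139302801 on the minus strand. Capitals mark matches to the NRF1 core or the ETS core CCGGAAG, searched on both strands. NRF1 (nuclear respiratory factor 1) and the ETS factor GABP are textbook regulators of nuclear respiratory genes.
NDUFA8: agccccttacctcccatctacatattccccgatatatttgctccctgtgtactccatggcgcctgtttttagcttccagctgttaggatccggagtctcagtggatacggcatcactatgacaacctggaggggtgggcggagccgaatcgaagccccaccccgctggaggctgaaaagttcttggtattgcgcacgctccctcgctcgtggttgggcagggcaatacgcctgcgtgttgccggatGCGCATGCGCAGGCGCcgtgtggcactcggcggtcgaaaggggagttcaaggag
SDHD: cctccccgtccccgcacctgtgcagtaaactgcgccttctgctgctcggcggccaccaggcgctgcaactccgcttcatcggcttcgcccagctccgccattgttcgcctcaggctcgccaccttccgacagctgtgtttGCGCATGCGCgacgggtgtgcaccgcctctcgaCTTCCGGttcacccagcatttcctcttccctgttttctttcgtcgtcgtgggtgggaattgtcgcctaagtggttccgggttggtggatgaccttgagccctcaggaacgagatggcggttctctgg
NDUFC1: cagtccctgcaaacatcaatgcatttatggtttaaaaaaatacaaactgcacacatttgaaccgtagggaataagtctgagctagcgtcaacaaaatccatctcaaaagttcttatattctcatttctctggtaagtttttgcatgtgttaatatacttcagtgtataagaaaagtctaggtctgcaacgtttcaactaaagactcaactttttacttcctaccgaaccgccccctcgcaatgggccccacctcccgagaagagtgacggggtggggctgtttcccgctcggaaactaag
The NDUFA8 window holds 2 overlapping NRF1 matches, the first across the start and the second wholly after it. The SDHD window holds an NRF1 match 110 bases and an ETS match 77 bases before the start. The NDUFC1 window holds no match to either core or to the YY1 core. Of the 91 nuclear genes 71 had a promoter in the table, and 17 of them (23.9%) held the NRF1 core, against 5.78% of all 35116 promoters. The ETS core occurred in 20 (28.2%, against 10.3%) and the YY1 core in 4 (5.63%, against 0.849%). At least 1 of the cores occurred in 35 (49.3%, against 15.5%). The reference was every promoter entry, with no limit to protein-coding genes or to 1 entry per gene. The shares may therefore not compare like with like. A match says only that these letters are in the window.

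A neighbour of NDUFA8 followed the same order of groups. LHX6, a LIM homeobox gene which lies 42758 bases beyond the start of NDUFA8 on the same strand, was looked at after the values of NDUFA8 were seen. LHX6 had 6.08, 5.29 and 5.05 CPM in FL-NPM1c, 2.12, 2.45 and 2.50 in C-body null, 3.15, 2.77 and 2.71 in mCherry, and 6.27, 5.93 and 6.18 in NTC DMSO libraries. Again the FL-NPM1c and NTC DMSO libraries lay above all of the others. LHX6 fell by 1.09 on the log2 scale in mCherry against NTC DMSO cells (adjusted p = 6.41e-06) and was 0.93 higher in FL-NPM1c than in mCherry cells (adjusted p = 0.000125), and both calls held without each library. RBM18, farther along, was not called between mCherry and NTC DMSO cells (-0.26, adjusted p = 0.0524) nor between FL-NPM1c and mCherry cells (-0.06, adjusted p = 0.660). Against NTC DMSO cells it was lower in C-body null (-0.42, adjusted p = 0.00228) and also in FL-NPM1c cells (-0.32, adjusted p = 0.0148). TTLL11, on the other side, was higher in FL-NPM1c than in mCherry cells (0.46, adjusted p = 0.0113) but also higher in C-body null than in NTC DMSO cells (0.59, adjusted p = 0.000894). MORN5, which starts 89 bases from NDUFA8 on the opposite strand, averaged 0.0133 CPM and was not tested.

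**Figure D4:**
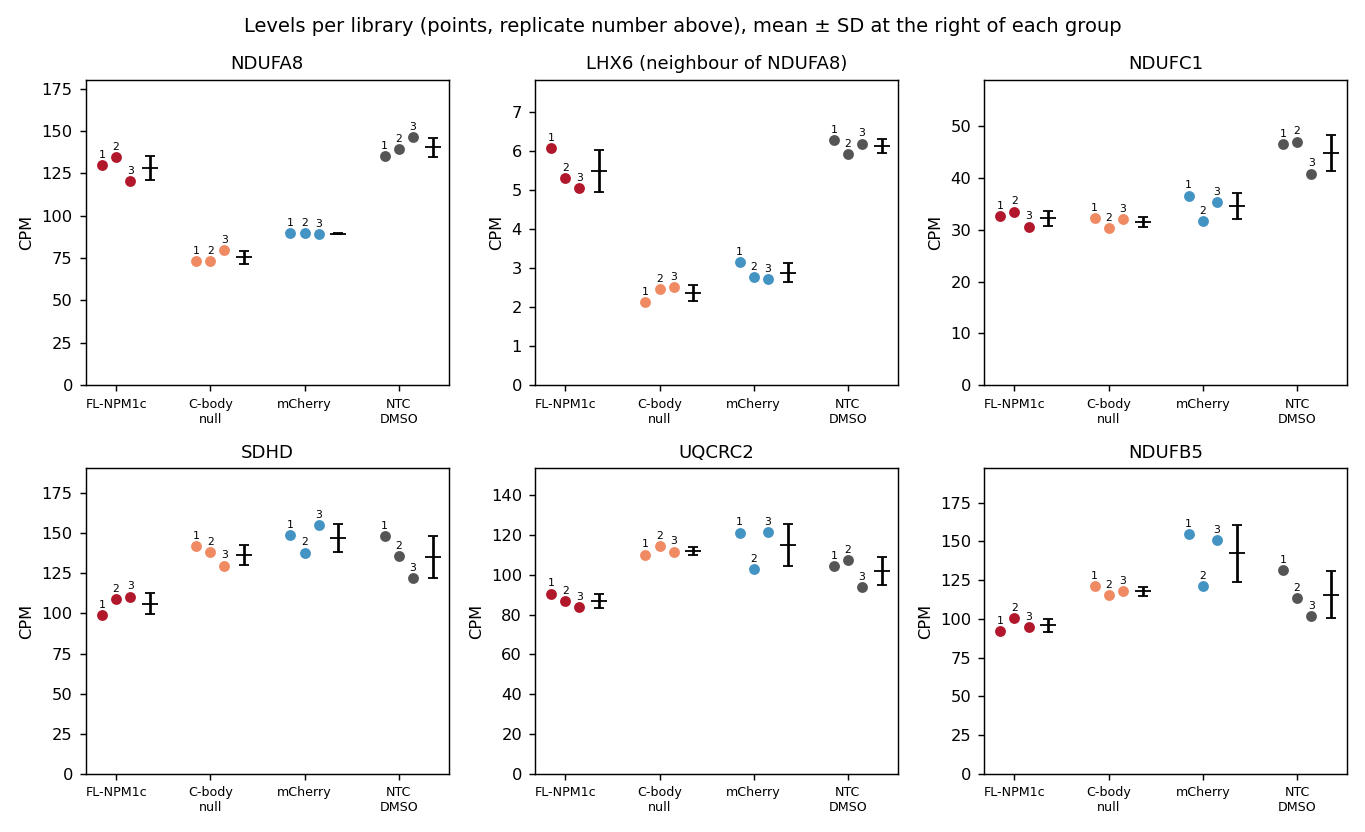
CPM of NDUFA8, its neighbour LHX6, NDUFC1, SDHD, UQCRC2 and NDUFB5 in each library (points, replicate number above) by group, with mean and SD. NDUFA8 and LHX6 are high in FL-NPM1c and NTC DMSO libraries, whereas SDHD and UQCRC2 are lower in FL-NPM1c libraries than in every other library.

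NDUFC1, a small accessory subunit of the membrane arm of complex I, was lower in every dTAG-13 group. It had 32.6, 33.5 and 30.6 CPM in FL-NPM1c, 32.2, 30.3 and 32.0 in C-body null, 36.6, 31.7 and 35.3 in mCherry, and 46.6, 47.1 and 40.9 in NTC DMSO libraries. The NTC DMSO libraries lay above the other 9. Against NTC DMSO cells the log2 fold change was -0.48 ± 0.09 in FL-NPM1c (adjusted p = 0.000677), -0.51 ± 0.09 in C-body null (adjusted p = 0.000283) and -0.38 ± 0.09 in mCherry cells (adjusted p = 0.00400). The 3 comparisons share the NTC DMSO libraries. All 3 calls held without each library in turn and after GC correction.

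The second comparison, FL-NPM1c against mCherry cells, asked what full-length NPM1c changed when put back. Some nuclear subunits of every complex were lower. Of the 84 nuclear genes 17 fell and 2 rose, where 7.95% of all genes were called lower and 7.58% higher, 15.5% in all. The lower ones were 7 of 38 nuclear genes of complex I, 2 of 4 of complex II, 1 of 10 of complex III, 3 of 13 of complex IV and 4 of 19 of complex V. The nuclear median was -0.09, against -0.00 over all genes, and ran from -0.14 without FL-NPM1c replicate 1 to -0.06 without FL-NPM1c replicate 3.

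In complex I, NDUFB5 of the membrane arm had 92.0, 100.5 and 94.5 CPM in FL-NPM1c libraries, against 155, 121 and 151 in mCherry libraries (-0.57 ± 0.10, adjusted p = 0.00153). NDUFA12, an accessory subunit of the matrix arm, was lower by -0.47 ± 0.10 (adjusted p = 0.00583), and NDUFA5, of the quinone module, by -0.47 ± 0.12 (adjusted p = 0.0130). NDUFS1, the large iron-sulfur subunit that carries electrons through the matrix arm, had 129, 129.7 and 132 CPM in FL-NPM1c libraries, against 161, 153 and 173 in mCherry libraries (-0.32 ± 0.07, adjusted p = 0.00904). None of these FL-NPM1c libraries reached the lowest mCherry library. NDUFA5 lost its call when FL-NPM1c replicate 1 was left out (-0.44, adjusted p = 0.0607). NDUFB3 (-0.37, adjusted p = 0.0276) lost its call in 5 of 6 single-library omissions, all but mCherry replicate 2, with adjusted p up to 0.117.

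In complex II, SDHD, the small membrane anchor of succinate dehydrogenase, had 98.9, 109 and 110.6 CPM in FL-NPM1c libraries, 142, 138 and 129.8 in C-body null, 149, 138 and 155 in mCherry, and 148, 136 and 122 in NTC DMSO libraries. Every FL-NPM1c library was below every other library. SDHD fell in FL-NPM1c against mCherry (-0.47 ± 0.08, adjusted p = 0.00156), against C-body null (-0.36 ± 0.08, adjusted p = 0.00985) and against NTC DMSO cells (-0.35 ± 0.08, adjusted p = 0.00569). The call against C-body null ended without C-body null replicate 1 (-0.34, adjusted p = 0.0571) or FL-NPM1c replicate 1 (-0.34, adjusted p = 0.0616). SDHB, the iron-sulfur subunit, stood at 101.4, 98.9 and 93.2 CPM in FL-NPM1c libraries, against 122, 109 and 120.5 in mCherry libraries (-0.26 ± 0.07, adjusted p = 0.0260), with no overlap. The call ended without FL-NPM1c replicate 2 or 3 or mCherry replicate 1 or 3 (adjusted p up to 0.0926). The flavoprotein SDHA went the other way without passing the test (0.21, adjusted p = 0.0979), and SDHC, the other anchor, had -0.22 (adjusted p = 0.0590).

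In complex III, UQCRC2, a core subunit, had 90.5, 86.7 and 83.7 CPM in FL-NPM1c, 110.1, 114 and 112 in C-body null, 121, 103 and 121 in mCherry, and 104, 107 and 93.8 in NTC DMSO libraries. It was again lowest in the FL-NPM1c libraries, with no overlap. UQCRC2 fell against mCherry (-0.41 ± 0.08, adjusted p = 0.00392) and against C-body null cells (-0.37 ± 0.08, adjusted p = 0.00787), and these calls held without each library. In complex IV, COX7B had 103, 91.8 and 89.3 CPM in FL-NPM1c libraries, against 139, 108 and 152 in mCherry libraries (-0.49 ± 0.11, adjusted p = 0.00704), and NDUFA4 fell by 0.40 on the log2 scale (adjusted p = 0.00446). In complex V, the peripheral stalk subunits ATP5PO (-0.35, adjusted p = 0.0158) and ATP5PB (-0.31, adjusted p = 0.0168), the c-subunit gene ATP5MC3 (-0.29, adjusted p = 0.00986) and the small membrane subunit ATP5MK (-0.39, adjusted p = 0.0416) were lower. ATP5PB lost its call without FL-NPM1c replicate 2 or mCherry replicate 1 or 3 (adjusted p up to 0.0817), ATP5PO without FL-NPM1c replicate 2 or 3 or mCherry replicate 1 or 3 (adjusted p up to 0.0635), and ATP5MK without any single library but mCherry replicate 2 (adjusted p up to 0.184). The higher ones were NDUFA8 and NDUFA4L2, a scarce paralogue of NDUFA4 known as a hypoxia target. NDUFA4L2 had 0.632, 1.00 and 1.08 CPM in FL-NPM1c libraries, against 0.359, 0.493 and 0.267 in mCherry libraries (1.24 ± 0.32, adjusted p = 0.0178). It was lost without FL-NPM1c replicate 2 (1.17, adjusted p = 0.0622) or 3 (1.07, 0.0649) and without mCherry replicate 1 (1.17, 0.0595) or 3 (1.08, 0.0670).

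The genes called lower were mostly GC-poor, with 16 of the 42 nuclear genes at or below their median GC called and 1 of the 42 above it. The 17 had transcript GC of 35.0% to 48.6% with a median of 42.7%, and the other 67 tested nuclear genes 37.5% to 65.0% with a median of 49.8%. Over all genes, those at or below the nuclear genes' median of 47.9% GC had a median log2 fold change of -0.13 and those above it 0.14. After GC correction 24 nuclear genes were lower and 4 higher, where 9.83% and 9.69% of all genes were called. The nuclear median was again -0.09, and 13 of the 17 lower calls remained. Those of NDUFS4, COX7A2, ATP5MC3 and ATP5MK did not (adjusted p from 0.0678 to 0.192). The calls then spread over the GC range, with 12 genes lower at or below the median GC and 12 above it. Genes called lower only after correction included UQCRC1 (-0.20), the other core subunit of complex III, NDUFV1 (-0.18), which holds the NADH site of complex I, COX6B1 (-0.20) and ATP5PF (-0.37). SDHD was then at -0.32 (adjusted p = 0.000139), UQCRC2 at -0.32 (adjusted p = 0.000318) and NDUFB5 at -0.40 (adjusted p = 0.000392). Without mCherry replicate 2, 48 of the 97 genes were lower and 8 higher, where 13% and 14.8% of all genes were called.

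**Figure D5:**
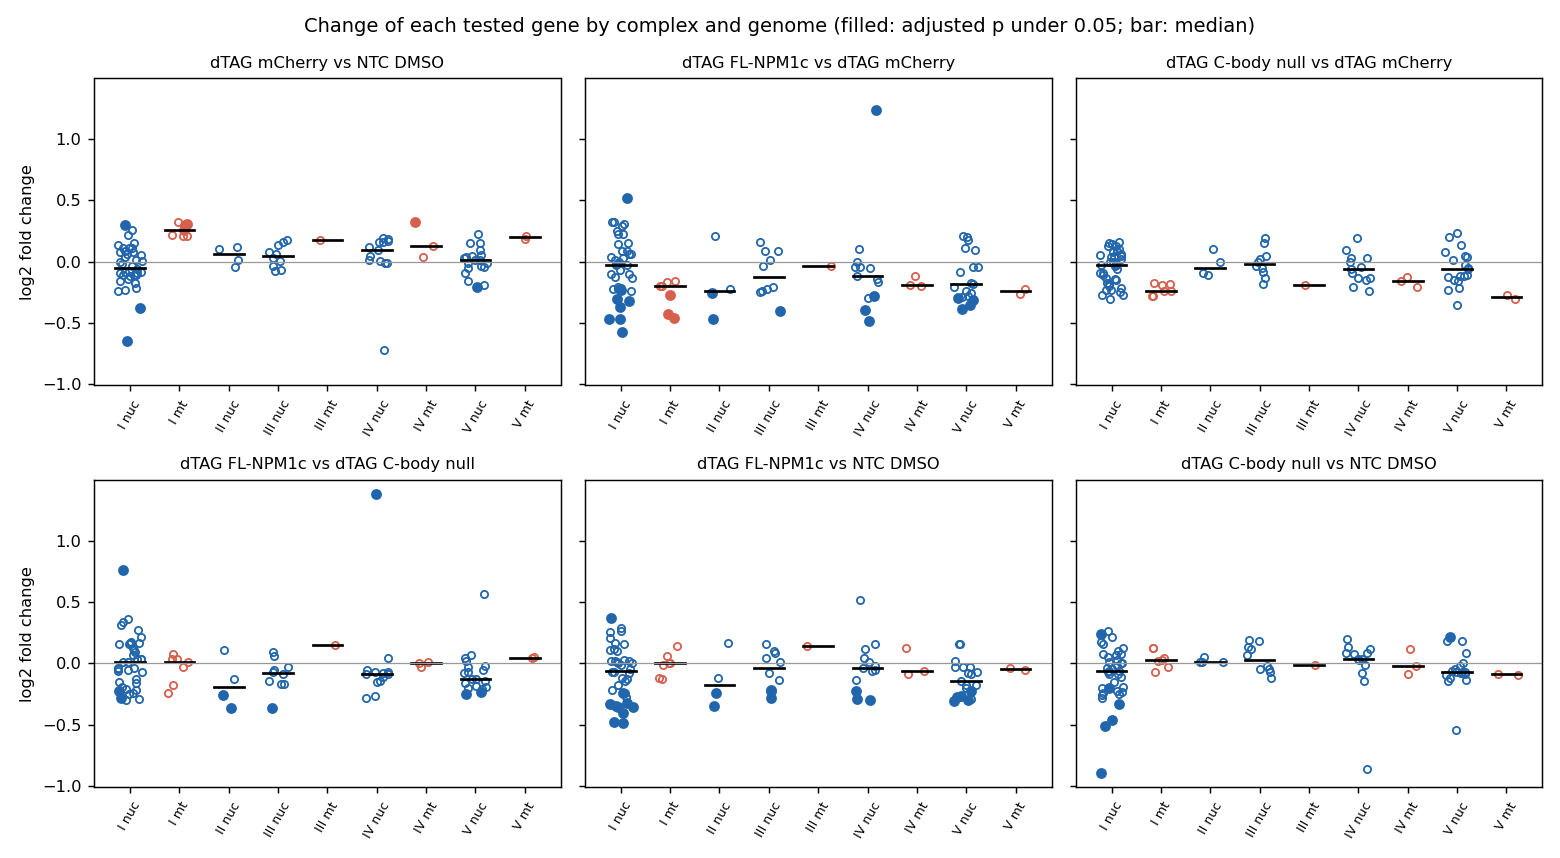
Log2 fold change of each tested gene by complex and genome (nuc, nuclear; mt, mitochondrial) in the 6 comparisons, filled where the adjusted p was under 0.05, with medians as bars. Lower nuclear calls appear in all complexes for FL-NPM1c against mCherry (17 genes) and NTC DMSO (22 genes), and none appear for C-body null against mCherry.

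The mitochondrial genes had a median of -0.20 in FL-NPM1c against mCherry cells, all 13 on the lower side, and 3 genes of complex I were called. That median was -0.33 without mCherry replicate 2 and -0.07 without mCherry replicate 3. After GC correction it was -0.11, MT-CYB was on the higher side (0.04), MT-ND5 and MT-ND6 were still called, and MT-ND4L was not (-0.14, adjusted p = 0.111). MT-ND5 had 2696, 2434 and 2765 CPM in FL-NPM1c, 3129, 3086 and 3145 in C-body null, 3331, 3209 and 4060 in mCherry, and 3002, 3079 and 2504 in NTC DMSO libraries. The FL-NPM1c libraries lay below all C-body null and mCherry libraries and overlapped those of NTC DMSO. MT-ND5 fell against mCherry cells (-0.43 ± 0.09, adjusted p = 0.00702), a call that held without each library, and differed from C-body null cells by -0.25 ± 0.09 (adjusted p = 0.114). MT-ND6, the single protein gene on the other strand, had 948, 911 and 917 CPM in FL-NPM1c libraries, against 1274, 1035 and 1499 in mCherry libraries (-0.46 ± 0.12, adjusted p = 0.0163), with no overlap. MT-ND5 and MT-ND6 end at adjoining bases on opposite strands, and whether counting used strand is not stated. MT-ND6 was no longer called when FL-NPM1c replicate 2 (-0.44, adjusted p = 0.0638) or mCherry replicate 3 (-0.32, adjusted p = 0.0831) was left out, nor MT-ND4L (-0.27, adjusted p = 0.0495) without any single library but mCherry replicate 2, with adjusted p up to 0.285. Within the 13 mRNAs, MT-ND5 made up 4.33%, 4.18% and 4.87% of counts in FL-NPM1c, 5.31%, 5.48% and 5.08% in C-body null, 4.98%, 5.59% and 5.16% in mCherry, and 5.00%, 4.98% and 4.49% in NTC DMSO libraries. The FL-NPM1c shares lay below those of C-body null and mCherry libraries, and replicate 3 overlapped NTC DMSO. MT-CYB of complex III made up 5.54%, 5.56% and 5.32% in FL-NPM1c libraries, above the 4.78% to 5.14% of the other 9. MT-CO2 made up 11.6% to 12.6% in the 9 dTAG-13 libraries, above the 11.0%, 11.4% and 11.2% of NTC DMSO libraries. MT-CO3 was highest in NTC DMSO libraries, 13.7% to 14.3%, against 12.1% to 13.4% in the others.

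C-body null against mCherry cells asked the same of the C-body null construct. No gene of the pathway was called by edgeR or DESeq2, where edgeR called 0.594% of all genes, 0.216% higher and 0.378% lower. At an unadjusted p under 0.05, 3 nuclear genes were higher and 5 lower and 6 mitochondrial genes were lower, beside 11.9% of all genes. The nuclear median was -0.04, and ran from -0.09 without C-body null replicate 3 to -0.01 without mCherry replicate 1. It was -0.07 without mCherry replicate 2, -0.02 without C-body null replicate 1 and -0.02 after GC correction. The mitochondrial median was -0.21, with all 13 genes on the lower side, and was -0.32 without mCherry replicate 2, -0.08 without mCherry replicate 3 and -0.16 after GC correction. MT-ATP8 had 1891, 1780 and 1888 CPM in C-body null libraries, against 2209, 1862 and 2787 in mCherry libraries (-0.30 ± 0.11, adjusted p = 0.306), the lowest mitochondrial p. The groups overlapped at mCherry replicate 2. Without that library 20 genes of the pathway were lower and none higher, where 2.6% and 3.1% of all genes were called. After GC correction NDUFA8 alone was called, lower, where 1.16% of all genes were called lower and 1.2% higher.

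FL-NPM1c against C-body null cells compared both constructs directly. Of the nuclear genes 7 fell and 2 rose, where 4.86% of all genes were called lower and 4.82% higher, 9.68% in all. UQCRC2, SDHD, SDHB, NDUFB9, NDUFA10, ATP5MC1 and ATP5MC3 were lower, and NDUFA8 and NDUFA4L2 higher. NDUFB9 of complex I had 260.2, 248 and 232 CPM in FL-NPM1c libraries, against 292, 298 and 312 in C-body null libraries (-0.29 ± 0.07, adjusted p = 0.0112), with no overlap. ATP5MC1 had 82.8, 82.6 and 77.3 CPM in FL-NPM1c libraries, against 92.6, 95.1 and 100.3 in C-body null libraries (-0.25 ± 0.07, adjusted p = 0.0350). NDUFA4L2 had 0.412, 0.202 and 0.429 CPM in C-body null libraries, below all FL-NPM1c values given above (1.38 ± 0.33, adjusted p = 0.0113). The calls of SDHB, ATP5MC1, ATP5MC3 and NDUFA10 ended without any 1 of the 6 libraries (adjusted p up to 0.166), that of NDUFB9 without FL-NPM1c replicate 3 (-0.24, adjusted p = 0.0626), and that of NDUFA4L2 without C-body null replicate 2 (1.08, 0.0745) or FL-NPM1c replicate 3 (1.22, 0.0535). No mitochondrial gene was called by edgeR or DESeq2, 1 was lower at an unadjusted p under 0.05, and their median was 0.01. Without single libraries of these groups that median ran from -0.06 (FL-NPM1c replicate 1) to 0.06 (FL-NPM1c replicate 3). After GC correction it was 0.05 and MT-ND5 was called lower (-0.21, adjusted p = 0.0363). All 9 calls remained after GC correction, which gave 16 nuclear genes lower and 3 higher, where 9.44% and 8.34% of all genes were called.

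FL-NPM1c cells were also set against NTC DMSO cells. Of the nuclear genes 22 fell and 1 rose, where 13.3% of all genes were called lower and 14.6% higher, 27.9% in all. The lower ones were 9 genes of complex I, 2 of complex II, 3 each of complexes III and IV, and 5 of complex V. At or below the nuclear genes' median GC 16 of 42 were lower, where 24.2% of all genes with known GC were. Above it 6 of 42 were lower, where 5.70% of all such genes were. NDUFS1 had 177, 181 and 161 CPM in NTC DMSO libraries, above all FL-NPM1c values given above (-0.41 ± 0.07, adjusted p = 0.000695). NDUFA9, of the quinone-binding region of complex I, had 56.9, 55.6 and 55.8 CPM in FL-NPM1c libraries, against 72.0, 72.6 and 69.2 in NTC DMSO libraries (-0.34 ± 0.08, adjusted p = 0.00335). ATP5F1B, the catalytic beta subunit, had 923, 892 and 864 CPM in FL-NPM1c libraries, against 1059.7, 1080.4 and 988 in NTC DMSO libraries (-0.22 ± 0.06, adjusted p = 0.0173). None of these overlapped. The call of ATP5F1B ended without FL-NPM1c replicate 2 or 3 or NTC DMSO replicate 1 or 2 (adjusted p up to 0.0675). NDUFA5 (-0.49), NDUFA6 (-0.33), the acyl carrier protein NDUFAB1 (-0.35), NDUFV2 (-0.33), NDUFA12 (-0.35) and ATP5MC3 (-0.31) were also among the 10 largest falls. The calls of NDUFAB1, NDUFV2 and NDUFA12 ended without NTC DMSO replicate 1 or FL-NPM1c replicate 3, those of NDUFAB1 and NDUFV2 also without FL-NPM1c replicate 2, and that of NDUFV2 without NTC DMSO replicate 2 (adjusted p up to 0.105). NDUFA2, a small matrix-arm subunit, rose to 40.1, 40.6 and 33.7 CPM in FL-NPM1c libraries, against 27.3, 29.6 and 31.6 in NTC DMSO libraries (0.37 ± 0.10, adjusted p = 0.0156), and lost its call without FL-NPM1c replicate 1 (0.30, 0.0878) or 2 (0.32, 0.0739) or NTC DMSO replicate 1 (0.31, 0.0818) or 2 (0.34, 0.0610). No mitochondrial gene was called by edgeR, by DESeq2 or at an unadjusted p under 0.05, with a median of -0.02. That median was -0.07 without NTC DMSO replicate 3 or FL-NPM1c replicate 1 and -0.00 without FL-NPM1c replicate 3, and GC correction turned it to 0.10, with no gene called. After GC correction 23 nuclear genes were lower and 1 higher, where 15.8% and 16.5% of all genes were called, and 17 of the 22 lower calls remained. Those of NDUFV2, COX7A2, COX7B, NDUFA4 and ATP5MC3 did not.

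Across the 3 comparisons of FL-NPM1c, which share its libraries, 30 nuclear genes were lower in at least 1 and 4 in all 3, namely SDHB, SDHD, UQCRC2 and ATP5MC3. Of all genes, 7.95% were called lower against mCherry, 4.86% against C-body null and 13.3% against NTC DMSO cells. None of these 4 genes kept its call in all 3 comparisons without each library in turn. The calls of SDHB and UQCRC2 against NTC DMSO cells also ended without single libraries (adjusted p up to 0.0821 and 0.145). After GC correction 8 were lower in all 3, namely SDHB, SDHD, UQCRC2, UQCRC1, COX6B1, NDUFA5, NDUFA12 and NDUFS1. The share of all genes lower in at least 1 or in all 3 comparisons was not worked out, with or without GC correction.

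C-body null against NTC DMSO cells showed 5 nuclear genes lower and 2 higher, where 12.4% of all genes were called lower and 14.1% higher, 26.6% in all. Besides NDUFA8 and NDUFC1, NDUFV2, an iron-sulfur subunit of the NADH module, had 126, 114 and 125 CPM in C-body null libraries, against 177, 175 and 151 in NTC DMSO libraries (-0.46 ± 0.11, adjusted p = 0.00378), with no overlap. NDUFB6 (-0.33, adjusted p = 0.0101) and NDUFS3 (-0.20, adjusted p = 0.0476) were lower, and NDUFB9 (0.24, adjusted p = 0.0151) and ATP5MC1 (0.22, adjusted p = 0.0300) higher. NDUFB6 lost its call without NTC DMSO replicate 1 (-0.26, 0.0698) or C-body null replicate 2 (-0.30, 0.0575). NDUFS3, NDUFB9 and ATP5MC1 lost theirs without NTC DMSO replicate 1 or 2 or C-body null replicate 2 or 3, with adjusted p up to 0.177, and NDUFS3 and ATP5MC1 also without C-body null replicate 1. No mitochondrial gene was called by edgeR or DESeq2 or passed an unadjusted p under 0.05, with a median of -0.01. That median was -0.06 without NTC DMSO replicate 3, 0.02 without C-body null replicate 2 and 0.06 after GC correction, with no gene called. All 7 calls remained after GC correction, which gave 11 nuclear genes lower and 6 higher, where 16.6% and 18.2% of all genes were called.

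Other genes of the pathway were read from 6 lists, whose median log2 fold changes in FL-NPM1c against mCherry cells were -0.10 for electron carriers, -0.05 for assembly factors, -0.12 for mitochondrial DNA expression, -0.06 for regulators, -0.14 for the tricarboxylic acid cycle and -0.14 for carriers, against -0.00 over all genes. These medians, and the counts of calls per list below, are without GC correction. They were not worked out with it, so the part of the GC trend in them was not tested. Among 19 genes for electron carriers and coenzyme Q synthesis, 5 fell and 1 rose in FL-NPM1c against mCherry cells, where 7.95% of all genes were called lower and 7.58% higher. Against NTC DMSO cells 8 fell and 1 rose, where 13.3% of all genes were called lower and 14.6% higher. CYCS, cytochrome c, had 192 ± 19.1 CPM in FL-NPM1c and 271 ± 14.3 CPM in mCherry libraries (SD, n = 3 each; -0.49 ± 0.11, adjusted p = 0.00907). GPD2, which passes electrons from glycerol phosphate to coenzyme Q, had 35.9 ± 3.35 CPM in FL-NPM1c and 51.2 ± 4.64 CPM in mCherry libraries (-0.51 ± 0.11, adjusted p = 0.00564). ETFA, the alpha subunit of the electron transfer flavoprotein, fell against NTC DMSO in C-body null (-0.56, adjusted p = 0.000116) and mCherry cells (-0.39, adjusted p = 0.00334). Among 50 assembly factors 6 fell and 2 rose in FL-NPM1c against mCherry cells, a share near the 15.5% of all genes called. SDHAF3, an assembly factor of complex II, had 17.5 ± 0.499 CPM in FL-NPM1c and 23.4 ± 2.00 CPM in mCherry libraries (-0.42 ± 0.10, adjusted p = 0.00850).

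Among 32 genes for mitochondrial DNA transcription, replication and RNA processing, 12 fell and 1 rose in FL-NPM1c against NTC DMSO cells, where 13.3% of all genes were called lower and 14.6% higher. Against mCherry cells 1 fell and 2 rose, a share below the 15.5% of all genes called. FASTKD1, a mitochondrial RNA-binding protein, had 45.0 ± 3.93 CPM in FL-NPM1c and 69.0 ± 8.72 CPM in mCherry libraries (-0.62 ± 0.12, adjusted p = 0.00235). MGME1, a mitochondrial DNA exonuclease, fell against NTC DMSO cells by 0.43 in FL-NPM1c, 0.65 in C-body null and 0.39 in mCherry cells on the log2 scale, with adjusted p of 0.00369, 9.47e-05 and 0.00739. TOP1MT, the mitochondrial topoisomerase, was 0.65 higher in C-body null than in NTC DMSO cells (adjusted p = 0.000131). Among 13 tested regulators 3 rose and 4 fell in FL-NPM1c against NTC DMSO cells, where 27.9% of all genes were called. YY1 was among the lower ones (-0.32, adjusted p = 0.00363). Among 25 genes of the tricarboxylic acid cycle and pyruvate dehydrogenase 7 fell and 1 rose in FL-NPM1c against mCherry cells, where 7.95% of all genes were called lower and 7.58% higher. They were led by IDH3A, a subunit of NAD-dependent isocitrate dehydrogenase, with 58.0 ± 2.06 CPM in FL-NPM1c and 84.3 ± 5.80 CPM in mCherry libraries (-0.54 ± 0.08, adjusted p = 0.000240). PDK4, a kinase that switches off pyruvate dehydrogenase, was higher than in NTC DMSO cells in every dTAG-13 group, by 2.60 in FL-NPM1c, 2.57 in C-body null and 2.48 in mCherry cells (adjusted p of 1.14e-07, 6.61e-08 and 1.59e-07). SQOR, which feeds electrons from sulfide into coenzyme Q, had 61.8 ± 5.54 CPM in FL-NPM1c, 96.1 ± 3.13 in C-body null, 95.9 ± 10.9 in mCherry and 65.8 ± 5.20 CPM in NTC DMSO libraries. It fell in FL-NPM1c against mCherry (-0.63 ± 0.10, adjusted p = 0.000388) and C-body null cells (-0.64 ± 0.10, adjusted p = 0.000298). The calls of CYCS, GPD2, ETFA, SDHAF3, FASTKD1, MGME1, TOP1MT, YY1, IDH3A, PDK4 and SQOR named with a p held without each library in turn and after GC correction. Of the 14 carriers and alternative oxidation genes, SQOR among them, 2 fell and 2 rose in FL-NPM1c against mCherry cells, where 15.5% of all genes were called. In C-body null against mCherry cells none of the 6 lists had a call, where 0.594% of all genes were called.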

How the data were processed

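RNA-seq gene counts of 12 libraries were analysed, and the authors deposited raw read counts per Ensembl gene. Per the submitters' processing notes, STAR, featureCounts and DESeq2 were used with hg38, without versions or roles; the counting mode is not given in the sources used here. Symbols came from a gene name table for 61479 of 78930 identifiers and from GENCODE 29 for 54 more. Library totals were 30.5 M to 59.9 M counts, which limits counting error for all but the scarcest genes; the spread between libraries, with a biological coefficient of variation of 0.0975, sets the precision. Groups came from the titles.

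Counts were filtered by expression (24064 genes kept), scaled by TMM and fitted with the edgeR 4.0.16 quasi-likelihood test over all 12 libraries with 1 mean per group, in R 4.3.3. P-values were adjusted over all genes by the Benjamini-Hochberg method, and a gene was called at an adjusted p under 0.05. The fit was also run on simulated counts drawn independently for each gene and library. These hold no shifts shared across the genes of a library, so that run does not speak to such shifts here. A standard error is that of the log2 fold change. CPM are counts scaled by the TMM-adjusted library total. Alternatives were DESeq2 1.42.0, other scalings, no filter, fits of 2 groups alone, a replicate block, each library left out, and, chosen after seeing the data, omission of mCherry replicate 2 with NTC DMSO replicate 3 and offsets that take out each library's GC trend (lowess, span 0.3).

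The members and lists were chosen with earlier results of these data known. Named were the mitochondrial genes that were called, up to 10 called nuclear genes per direction and comparison by fold change, the isoform pairs, the 3 highest and lowest nuclear genes per length, and up to 3 called genes per pathway list, direction and comparison. SDHA, SDHC, SDHB and NDUFS1 against mCherry, ATP5PB, ATP5F1B, MT-CYB, MT-CO3, LHX6 and its neighbours were named after their values were seen. Promoter sequences are from RefSeq (GRCh38.p14).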

Additional observations from a re-analysis of the deposited data

How the results depend on the processing

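Counts of called oxidative phosphorylation genes and their median fold changes both depended on the libraries. Leaving out 1 library at a time, the mitochondrial median ran from 0.08 to 0.34 in mCherry against NTC DMSO, -0.33 to -0.07 in FL-NPM1c against mCherry and -0.32 to -0.08 in C-body null against mCherry cells, and GC correction turned that of FL-NPM1c against NTC DMSO to 0.10 (-0.02 uncorrected). No call of the 50 named genes and comparisons changed sign. Of those 50 calls 21 held under every alternative. Leaving out 1 library at a time gave 2 to 26 genes in mCherry against NTC DMSO cells (8 with all libraries; 26 without mCherry replicate 2 and 2 without mCherry replicate 3), 11 to 56 in FL-NPM1c against mCherry (22; 56 without mCherry replicate 2), 0 to 20 in C-body null against mCherry (0; 20 without mCherry replicate 2), 3 to 6 in FL-NPM1c against C-body null (9), 7 to 29 in FL-NPM1c against NTC DMSO (23; 7 without NTC DMSO replicate 1) and 3 to 14 in C-body null against NTC DMSO cells (7; 14 without NTC DMSO replicate 3). In the same order of comparisons, leaving out both mCherry replicate 2 and NTC DMSO replicate 3, chosen after seeing the data, gave 26, 62, 43, 29, 44 and 23. The GC-corrected fit gave 18 in mCherry against NTC DMSO, 1 in C-body null against mCherry, 20 in FL-NPM1c against C-body null and 17 in C-body null against NTC DMSO cells. Fits of the 2 groups alone gave 2 in mCherry against NTC DMSO, 14 in FL-NPM1c against mCherry and 27 in FL-NPM1c against C-body null cells. Without the filter there were 2 in C-body null against mCherry and 14 in FL-NPM1c against C-body null cells. Shares of all genes called are given above only with all libraries, without mCherry replicate 2 and after GC correction. The other counts show how the calls moved and cannot be read as particular to the pathway. The cause of these shifts was not tested, and GC content and group cannot be told apart where they move together.

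Replicate numbers were not treated as pairs in the main fit. Residuals of same-numbered libraries of different groups correlated from -0.307 to 0.159 over 18 pairs, and those of other-numbered libraries from -0.259 to 0.404. Whether same-numbered libraries share a culture or batch was not tested. A replicate block gave 3 genes in mCherry against NTC DMSO and 5 in FL-NPM1c against C-body null cells, again without a share of all genes beside these counts. Under it 13 of the 50 named calls were lost. Depth limits what can be said of NDUFA4L2 and the isoforms with few or no counts.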
